A study of Homo sapiens with 16 samples.

Results

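Across the p65 ChIP-Seq tracks of 2 colon cancer lines, 840 promoter regions passed the limits for bound chromatin in SW480 cells with estrogen receptor β (ERβ) and in no other group. They were among 6238 regions bound in at least 1 of 4 groups, of which 1742 lay at promoters and 3230 were bound in SW480 ERβ alone. Each is a stretch of 200-bp bins of GRCh38 (hg38), chromosomes 1 to 22 and X, whose centre lies within 1 kb of the transcription start site (TSS) of a protein-coding transcript in GENCODE release 44. A bin counted as bound in a group when at least 2 of its 3 ChIP tracks had a mean signal of at least 2, at least 4 times the group's own input (with an input floor of 0.35) and at least 4 times the surrounding 10 kb. Bound bins within 200 bp were joined over groups. The members were thus chosen by the ChIP and input signal of all 4 groups, and the contrast of SW480 ERβ with the others is described here without a test. The number depends on the limits: it fell to 269 when the libraries were set to an equal level at the regions bound in all 4 groups, and to 431 when the input of the other ERβ status was used.

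HT29 and SW480 are human colorectal cancer lines. Both had been stably transfected with ERβ or with an empty vector (mock), and all cells had received TNFα at 30 ng/ml for 30 minutes before cross-linking with DSG and formaldehyde. The groups SW480 ERβ, SW480 mock, HT29 ERβ and HT29 mock each had 3 ChIP libraries and 1 input, so that every group carried the TNFα treatment and no untreated cells were compared. ERβ was exogenous in both lines, the sources used here do not say whether a line is 1 clone or a pool, and the study lists the inputs of both ERβ groups under another series, so it is not known whether they were made together with these ChIP libraries. The tracks hold scaled tag density without read counts, so library depth was not read from them. The study reports a range of mapped reads per sample, which was not used here.

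p65 (RELA) is a DNA-binding subunit of NFκB. In resting cells inhibitor proteins of the IκB family hold NFκB dimers in the cytoplasm, and TNFα signals through receptor-bound adaptors and the IκB kinases to destroy the inhibitor and let p65 enter the nucleus, where it binds κB sites in promoters and enhancers of inflammatory and survival genes. ERβ is a nuclear receptor of the intestinal epithelium that binds estrogen response elements and can also act at sites of other transcription factors.

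Of the 840 regions, 443 (52.7%, 95% Clopper-Pearson interval 49.3% to 56.2%, counting error only) held at least 1 exact match to the κB consensus on either strand. The windows of 30 bases below show matches at regions with high signal or a large gap between SW480 ERβ and mock, at genes of TNFα and Wnt signalling and of the circadian clock, and at AFF3, a region with overlapping matches. They are read from GRCh38 on the plus strand, 5′ to 3′, and capitals mark the match.
PLAU, chr10:73909250-73909279: gacggtccctGGGAATTTCCtgataactaa
CXCR6, chr3:45942739-45942768: gtcaacatctGGGGAATTCCaggagtacag
ALOX5AP, chr13:30734691-30734720: agttccctttGGGAATTTCCcttagggatc
TNIP1, chr5:151087197-151087226: ttaggcaggaGGGGAATTCCccgagatgga
TRAF2, chr9:136882671-136882700: gagcccacgtGGGAATCCCCtgagctgcgc
CD70, chr19:6591187-6591216: aattggcgagGGGAAATTCCctccaaccgc
WNT1, chr12:48977878-48977907: actcatccccGGGATTTCCCtgaccacagc
BHLHE40, chr3:4978890-4978919: agctagcaagGGGATATTCCtctcccggct
BMAL1, chr11:13278574-13278603: cgctgcacccGGGAATCCCCggccggcacg
AFF3, chr2:100105255-100105284: ggtgggtgcgGGGGAATTCCccggccgccc
The palindromic stretch at AFF3 and at TNIP1 contained 3 overlapping matches in 12 bases, so a count of matches is not a count of separate sites.

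OXTR, the gene of the oxytocin receptor, shows several matches spread over 1 member, a region of 600 bp around its start. Its 4 windows follow on the plus strand, with the match in capitals.
OXTR window 1, chr3:8768657-8768686: acctccccgaGGGAATCTCCaaactaccta
OXTR window 2, chr3:8768771-8768800: tacttcctccGGAAATCCCCaaatagccac
OXTR window 3, chr3:8768797-8768826: ccacttgcctGGGAAACCCCagctctggtc
OXTR window 4, chr3:8768916-8768945: gtccctgctgGGGGAACCCCtgcctcaaag
Over all members, 397 had no match, 320 had 1, 93 had 2, 25 had 3, 4 had 4 and 1, upstream of GCNT4, had 5. The commonest matched words, each counted with its reverse complement, were GGGAAGCCCC with 34 matches, GGGAAGTCCC with 27 and GGGAAACCCC with 26.

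The member with the highest signal, AKAP13, and CST5, among those with the largest gaps to mock, had no exact κB match in 200 bp. They are printed whole, on the plus strand. Capitals mark the RUNX match TGTGGTT and the SP1/KLF matches GGGCGG at AKAP13, and the E-box CACGTG at CST5.
AKAP13, chr15:85380201-85380400: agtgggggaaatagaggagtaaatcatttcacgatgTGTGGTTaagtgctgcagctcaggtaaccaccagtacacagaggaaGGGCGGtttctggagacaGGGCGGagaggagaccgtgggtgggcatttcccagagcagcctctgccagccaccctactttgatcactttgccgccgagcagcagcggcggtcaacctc
CST5, chr20:23880001-23880200: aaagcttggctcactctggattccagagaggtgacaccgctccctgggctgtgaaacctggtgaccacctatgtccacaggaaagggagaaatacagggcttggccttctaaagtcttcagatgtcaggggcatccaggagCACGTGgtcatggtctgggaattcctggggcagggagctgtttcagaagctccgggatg

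The signal of the members was moderate in SW480 ERβ and lower elsewhere. The median over the 840 regions was 2.05, 3.41 and 3.15 in SW480 ERβ replicates 1, 2 and 3, and 1.23, 1.41 and 1.45 in SW480 mock. In HT29 ERβ it was 1.71, 0.923 and 0.944, and in HT29 mock 2.01, 1.05 and 1.11. Replicate 1 was thus the lowest of the SW480 ERβ libraries and the highest of each HT29 group, and the median of HT29 mock replicate 1 came close to that of SW480 ERβ replicate 1. As means of the library medians, SW480 ERβ stood at 2.87 ± 0.722 (SD, n = 3), SW480 mock at 1.36 ± 0.115, HT29 ERβ at 1.19 ± 0.446 and HT29 mock at 1.39 ± 0.538. The input medians were 0.48 for SW480 ERβ, 0.79 for SW480 mock, 0.568 for HT29 ERβ and 0.436 for HT29 mock.

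**Figure D1:**
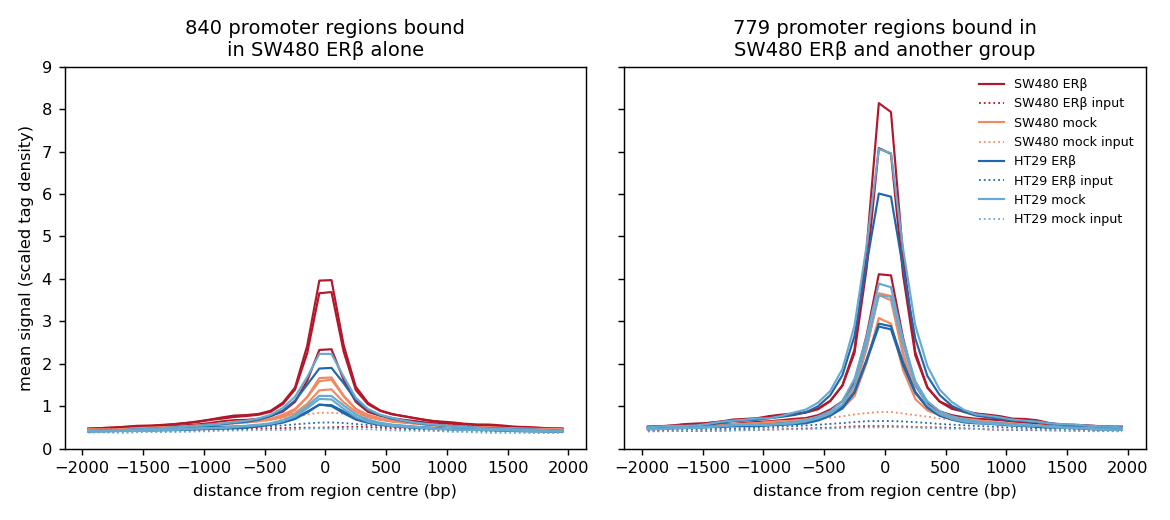
Mean signal (y axis, scaled tag density) against distance from the region centre in bp (x axis), for the 840 members on the left and the 779 promoter regions bound in SW480 ERβ and another group on the right, with 1 solid line per ChIP library and dotted lines for inputs. At the members the SW480 ERβ lines form the highest peaks, but lower ones than at the shared promoters, and HT29 libraries also peak at the members' centres.

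The ratio of SW480 ERβ to SW480 mock, from the means of the library medians, was 2.10 at the members. It was 1.95 at the 779 promoter regions bound in SW480 ERβ and another group, 1.78 at the 219 promoter regions bound in all 4 groups and 2.49 at the 2390 SW480 ERβ-alone regions away from promoters. The members' median difference in log2(signal + 1) was 0.68, with a range from -0.09 to 1.83, and over all 6238 regions it was 0.68 as well. All 3 SW480 ERβ libraries lay above all 3 mock libraries at 514 members (61.2%), beside 55.0% of all regions, a share that nothing is read from because the rule used this contrast. By replicate number, SW480 ERβ was above mock at 739 members in replicate 1, at 836 in replicate 2 and at 827 in replicate 3. The rule used these libraries too. By group mean SW480 ERβ was above mock at 839 members and at 6114 of all 6238 regions, so these counts are not particular to the members.

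**Figure D2:**
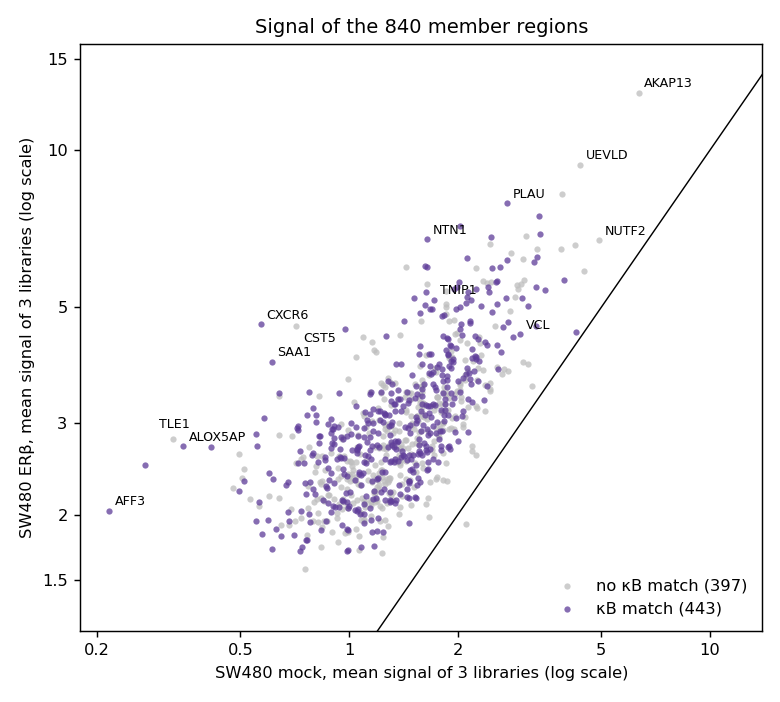
Mean signal of 3 SW480 mock libraries (x axis, log scale) against 3 SW480 ERβ libraries (y axis, log scale), 1 point per member, coloured by whether it holds a κB match; the line marks equal values. All points but 1 lie above the line, and members with and without a match are mixed at every level.

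A measure that the rule had not used was obtained by choosing promoter regions again without 1 replicate of every group and reading that replicate at the regions chosen. Without replicate 1, 983 regions were chosen, and SW480 ERβ replicate 1 was above SW480 mock replicate 1 at 848 of them (86.3%), beside 83.2% of all regions of that choice. Replicate 2 was higher in SW480 ERβ at 368 of 370 regions (99.5%, beside 97.5%) and replicate 3 at 391 of 402 (97.3%, beside 95.7%). At the regions of each choice bound in all 4 groups SW480 ERβ was higher at 288 of 402 (71.6%) in replicate 1, at all 383 in replicate 2 and at 387 of 388 (99.7%) in replicate 3, a lower share than at the chosen regions in replicate 1 and a higher one in the other replicates. The chosen regions are new choices and not the 840 members. The SW480 ERβ libraries left out were above their mock counterparts at most of them, and at most of all regions as well. The median log2 difference in the library left out was 0.41, 0.95 and 0.80 for replicates 1, 2 and 3 at the regions so chosen, and 0.41, 0.93 and 0.76 at all regions. Against HT29 the replicates differed: the median of replicate 1 was 2.04 in SW480 ERβ, 2.03 in HT29 ERβ and 2.44 in HT29 mock. In replicate 2 it was 4.33 beside 1.12 and 1.3, and in replicate 3 it was 3.80 beside 1.06 and 1.32. Replicate 1, left out of the choice, was thus no higher in SW480 ERβ than in HT29 mock by its median.

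Most members stood close to the limits. In SW480 ERβ, 288 (34.3%) passed in all 3 tracks and 552 (65.7%) in 2. The limiting track exceeded its nearest limit by less than 1.1 times at 216 members and by less than 1.5 times at 622. The nearest limit was the fold over the surrounding 10 kb at 372 members, the signal minimum at 245 and the fold over input at 223. A single track of HT29 mock passed at 342 members (40.7%), of HT29 ERβ at 182 (21.7%) and of SW480 mock at 65 (7.74%), and no track of another group passed at 449 (53.5%). Just inside the limits were the regions nearest CYBRD1, PALS2, GSK3B, ALCAM and SKP1, with mean SW480 ERβ signals of 2.25, 2.23, 2.24, 1.94 and 1.74. Just outside were those nearest NAPG, TSPAN8, VSNL1, SLC16A5 and MTG2; at NAPG the SW480 ERβ libraries gave 2.17, 1.85 and 2.02, and at SLC16A5 2.89, 4.50 and 3.27.

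The input took part in the choice. The SW480 mock input was above the SW480 ERβ input at 764 members (91.0%). At the bin of each member with the highest SW480 ERβ signal, SW480 mock met the signal minimum in 2 of 3 tracks at 147 members and the limit over 10 kb at 146, but the fold over input at 12. Both the signal minimum and the limit over 10 kb were met at 82 members (9.76%), where at that bin the fold over input was the limit that SW480 mock failed. The same count was 65 (7.74%) for HT29 mock and 29 (3.45%) for HT29 ERβ. The part that the inputs and the levels of the libraries have in these counts was tested only by the other settings given further on.

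AKAP13 had the highest SW480 ERβ signal of all members. The gene encodes an A-kinase anchoring protein, and the region is centred at -286 bp from its nearest start (negative upstream), outside genes. SW480 ERβ gave 7.95, 14.3 and 16.4 in replicates 1 to 3 and SW480 mock 4.84, 7.21 and 7.04, while the HT29 libraries lay between 1.54 and 3.33. All SW480 ERβ values were above all mock values, but the mock signal was itself 4.07 to 6.06 times the surrounding 10 kb and failed only on its input of 2.09, over which it rose 2.31 to 3.44 times. The SW480 ERβ input there was 1.09. UEVLD, with its region at -54 bp, gave 6.55, 11.1 and 10.5 in SW480 ERβ and 3.73, 3.90 and 5.51 in mock, again with a higher mock input (1.88 against 0.747). At NUTF2, the gene of a nuclear import factor, the groups overlapped: SW480 ERβ gave 4.37, 8.59 and 7.25 and mock 4.04, 4.69 and 6.06.

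PLAU, encoding the urokinase-type plasminogen activator, a protease of cell migration and matrix turnover, had its region in an annotated intron at 124 bp past the nearest start. SW480 ERβ gave 5.77, 7.92 and 10.1, SW480 mock 1.63, 1.35 and 5.28, HT29 ERβ 0.784, 1.04 and 1.33 and HT29 mock lay between 0.961 and 2.09. Mock replicate 3 stood apart from the other mock libraries and came close to the lowest SW480 ERβ library, and it passed the limits in that single track. LPP, a gene of a focal adhesion protein, gave 5.65, 7.55 and 8.28 against 1.99, 1.71 and 2.39 in mock, without overlap. VCL, encoding vinculin, which links adhesions to actin, gave 2.07, 6.95 and 4.29 against 2.49, 3.40 and 3.07, with overlap. PLAU and VCL were the 2 of 63 genes (3.17%) with a member region in the list of adhesion, integrin, laminin and tight junction genes. Of all protein-coding genes 4.21% had one.

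NTN1, the gene of netrin-1, a secreted guidance cue and survival factor, had its member region at -210 bp, outside genes. SW480 ERβ gave 2.98, 9.49 and 7.83, SW480 mock 0.876, 1.72 and 2.35, HT29 ERβ 0.856, 0.14 and 0.13 and HT29 mock 0.48, 0.55 and 0.332. All HT29 libraries lay below the lowest SW480 mock library, and SW480 mock lay below all SW480 ERβ libraries. NODAL, a ligand of the TGF-β superfamily, gave 3.71, 8.73 and 8.28 in SW480 ERβ and 2.54, 3.60 and 4.0 in mock, so that replicate 1 fell within the mock range.

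Several of the largest gaps between SW480 ERβ and mock were at regions with little mock signal. CXCR6, a chemokine receptor, gave 5.08, 5.66 and 3.20 in SW480 ERβ, 0.377, 0.639 and 0.692 in mock and 0.224 to 0.483 in the HT29 libraries, a ratio of 8.16 between the SW480 means. CST5, encoding cystatin D, an inhibitor of cysteine proteases, gave 5.62, 5.23 and 2.98 against 0.774, 0.911 and 0.45 in mock. Both had their lowest SW480 ERβ value in replicate 3 and not in replicate 1. SAA1, encoding the acute-phase protein serum amyloid A1, gave 3.67, 4.08 and 4.05 in SW480 ERβ, 0.729, 0.313 and 0.788 in mock, 0.898, 1.03 and 0.332 in HT29 ERβ and 1.30, 0.969 and 1.09 in HT29 mock. The SAA1 values were even across SW480 ERβ replicates and did not overlap with any other group. ALOX5AP, whose product presents arachidonic acid to 5-lipoxygenase in leukotriene synthesis, gave 2.13, 3.02 and 2.99 against 0.33, 0.31 and 0.40. TNFAIP2, a gene induced by TNFα in many cells, gave 3.74, 5.99 and 8.18 against 0.826, 1.28 and 2.22.

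**Figure D3:**
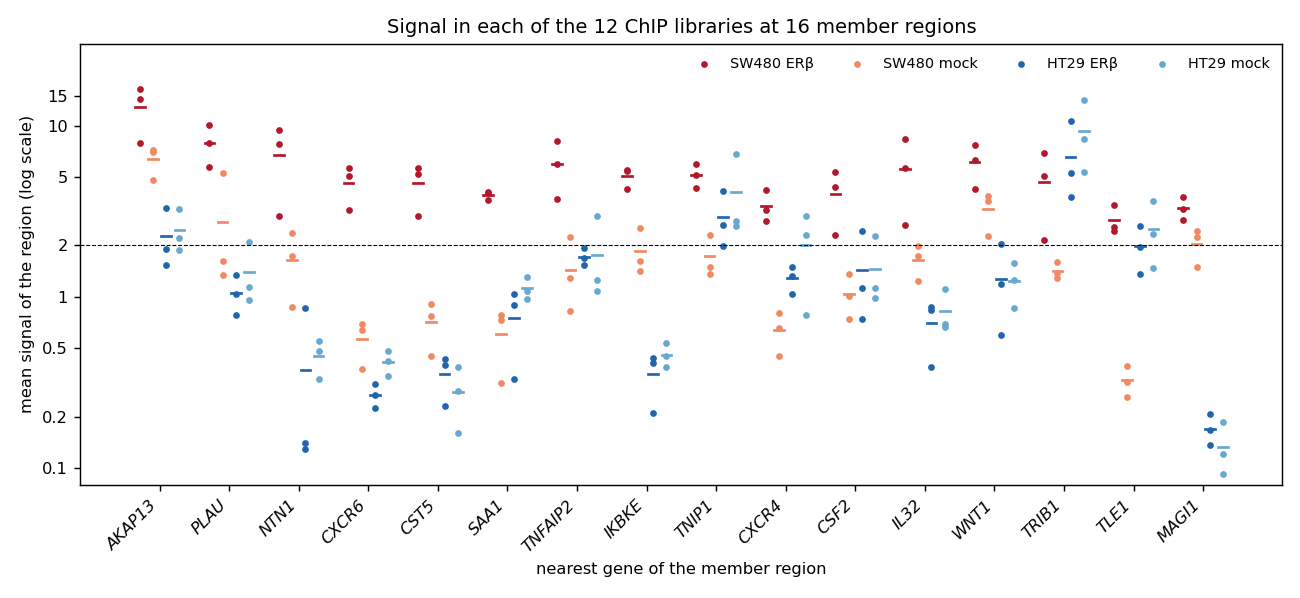
Mean signal of the region (y axis, log scale) in each of 12 ChIP libraries (points, coloured by group, with a bar at the group mean) at 16 members named by nearest gene; the dashed line is the signal minimum of 2. SW480 ERβ points lie highest at most genes. At TRIB1 the HT29 means lie above the SW480 ERβ mean while the points overlap, and the HT29 values of MAGI1 lie below 0.21.

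Some regulators of TNFα signalling were among the members. None of 15 listed genes of NFκB subunits and inhibitors had a member region, and with so few genes nothing is read from that. A promoter region bound in SW480 ERβ and another group was found at 11 of the 15. Of 40 genes for TNF receptor signalling and ubiquitin editing, 6 (15%) had a member: BIRC2, IKBKB, IKBKE, IKBKG, TNIP1 and TRAF2. A promoter region bound in SW480 ERβ and another group was found at 10 genes of this list. Over all 19618 protein-coding genes, 826 (4.21%) were the nearest gene of a member, and 760 that of a promoter region bound in SW480 ERβ and another group. These lists and the members were chosen with results of these data known, so the shares are a description.

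Within that list, IKBKE, a kinase related to the IκB kinases and active in innate immunity, gave 5.42, 4.29 and 5.50 in SW480 ERβ and 1.62, 1.42 and 2.54 in mock, and its HT29 libraries lay between 0.21 and 0.539. TNIP1, which binds the ubiquitin-editing protein A20, gave 4.33, 6.0 and 5.18 against 1.36, 1.5 and 2.31 in mock. The study's own calls place TNIP1 among the most enriched p65 promoter sites of both lines without ERβ. In HT29 TNIP1 was high as well, at 4.13, 1.99 and 2.62 in ERβ and 6.87, 2.78 and 2.59 in mock cells, so that SW480 mock had the lowest mean of the 4 groups. TRAF2, an adaptor of TNF receptors, gave 3.72, 6.11 and 4.88 against 1.64, 2.85 and 2.98, and BIRC2, a ubiquitin ligase that works with TRAF2, gave 4.21, 5.15 and 3.48 against 2.15, 1.49 and 3.29. Neither overlapped between the SW480 groups. IKBKG, the regulatory subunit of the IκB kinase on the X chromosome, had 0.98, 2.97 and 2.48 against 0.578, 0.63 and 0.39, while HT29 replicate 1 reached 2.55 in ERβ and 2.47 in mock cells. In the TNF ligand and receptor superfamily 2 of 43 genes had a member. CD70, the ligand of CD27, gave 1.85, 3.96 and 3.15 against 0.603, 0.677 and 1.34, and RELT, a receptor of the family, 2.83, 4.12 and 3.58 against 1.46, 1.22 and 2.83. None of the 34 genes in the apoptosis list had a member region, beside 4.21% of all genes. BIRC2, whose product also inhibits apoptosis, was counted above and is not in that list, so nothing is read from this count.

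In the list of chemokines, cytokines and their receptors, 8 of 73 genes (11%) had a member: CSF1, CSF2, CXCL6, CXCR4, IL12B, IL18R1, IL32 and IL7. A promoter region bound in SW480 ERβ and another group was found at 16. The list is not complete: the chemokine receptor gene CXCR6, a member described above, is outside it. CXCR4, the receptor of CXCL12 in cell migration, gave 2.79, 4.18 and 3.20 in SW480 ERβ and 0.45, 0.807 and 0.659 in mock, and 1.49, 1.04 and 1.33 in HT29 ERβ and 2.97, 0.783 and 2.30 in HT29 mock. CSF2, encoding the growth factor GM-CSF, gave 2.29, 5.33 and 4.41 against 0.744, 1.02 and 1.37. IL32 gave 2.64, 5.68 and 8.33 against 1.99, 1.23 and 1.72, and IL18R1, a subunit of the IL-18 receptor, 2.64, 5.18 and 5.46 against 1.29, 1.19 and 1.68. These 4 were taken from the 8 for their highest SW480 ERβ signal. The SW480 groups did not overlap at them, as at 61.2% of all members and 55.0% of all regions. IRF3 was the single member among 51 genes for the interferon response and antigen presentation.

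In the Wnt and TGF-β list, 8 of 65 genes (12.3%) had a member: FZD5, NOTUM, SKIL, TGFBR1, WNT1, WNT10A, WNT7B and ZNRF3, and 1 had a promoter region shared with another group. They cover ligands (WNT1, WNT7B, WNT10A), receptors (FZD5, TGFBR1), secreted or membrane antagonists of Wnt (NOTUM, ZNRF3) and a repressor of SMAD signalling (SKIL). The list is not complete: other members of these pathways, among them NODAL and GSK3B, are outside it. WNT1 gave 4.27, 6.33 and 7.71 in SW480 ERβ and 2.26, 3.87 and 3.63 in mock. WNT10A had 2 member regions, the stronger with its centre at -752 bp from the start and with 4.01, 6.39 and 7.52 against 1.97, 1.98 and 3.92. At WNT7B the groups overlapped, with 0.69, 2.63 and 3.41 against 0.963, 1.89 and 1.5.

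Of 25 circadian clock genes 4 (16%) had a member: CLOCK and BMAL1, the activating pair of the clock, PER2, a repressor of that pair, and BHLHE40, a further repressor. The shared promoter regions covered 4 genes of this list too. By its own calls, the study names CLOCK among genes with sites bound in HT29 without ERβ and in SW480 with ERβ. BHLHE40 gave 4.86, 4.13 and 4.06 against 1.65, 2.33 and 2.85 in mock, without overlap. The others were weaker and rested on replicates 2 and 3: BMAL1 gave 1.54, 3.16 and 3.07 against 1.5, 1.24 and 0.633. CLOCK gave 0.833, 3.06 and 2.48 against 0.993, 1.1 and 1.21, and PER2 0.686, 3.54 and 2.98 against 0.823, 1.37 and 0.786, so that replicate 1 was within or below the mock range in both.

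Among other regulators, 3 of 29 listed genes of AP-1 and the MAP kinase phosphatases (10.3%) had a member. All of them were phosphatases, DUSP2, DUSP5 and DUSP6, and no AP-1 subunit gene of the list was a member. DUSP22, a further gene of the DUSP family with a member region, is outside the list. DUSP2 gave 2.78, 4.47 and 3.89 against 0.985, 1.38 and 2.11, whereas the SW480 groups overlapped at DUSP5 and DUSP6. From its own calls and separate expression data, the study lists DUSP5 among genes whose induction by TNFα in SW480 needed ERβ and p65 binding. For KLF, SP, ETS and RUNX genes and immediate early factors it was 5 of 52 (9.62%), namely ETV4, ETV6, KLF2, NR4A2 and RUNX1. The study names RUNX1, like CLOCK, among genes with sites bound in HT29 without ERβ and in SW480 with ERβ. ETV6, an ETS-family repressor, gave 4.12, 5.27 and 5.71 against 1.60, 2.63 and 2.73. The list of nuclear receptors had 2 of 39, the lipid-sensing receptors PPARA and PPARD. NR4A2, a nuclear receptor too, was counted with the immediate early factors and is not in that list. At PPARD the values were 2.64, 2.65 and 3.23 against 0.673, 0.716 and 1.08, and at PPARA replicate 1 of SW480 ERβ (0.783) lay within the mock range.

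Of other gene families, beside 4.21% of all genes, ribosomal protein genes had 1 of 85 (RPL22L1), histone genes 2 of 92, zinc finger genes named ZNF 19 of 512 (3.71%), genes of the mitochondrial ribosome and respiratory chain 7 of 181 (3.87%), and proteasome and ubiquitin ligase genes 13 of 387 (3.36%). RNA polymerase and mediator subunits had 2 of 63. Solute carriers, transporters of ions and metabolites, had 26 of 373 (6.97%).

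The κB share of the members was read against other sequences over equal windows of 200 bp. It was 48.9% (45.5% to 52.4%) at the members' centres, 65.5% (62.0% to 68.8%) at the promoter regions bound in SW480 ERβ and another group, 76.7% (70.5% to 82.1%) at those bound in all 4 groups, 51.2% (49.2% to 53.2%) at the distal SW480 ERβ-alone regions and 6.41% (6.07% to 6.76%) around all 19970 protein-coding gene starts. The members thus held a match far more often than gene starts and less often than shared promoters, with intervals that do not overlap. Moving the window by 200 bp to either side of the centre left 12% and 10.1%, and farther windows out to 1 kb gave 4.29% to 7.5%.

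**Figure D4:**
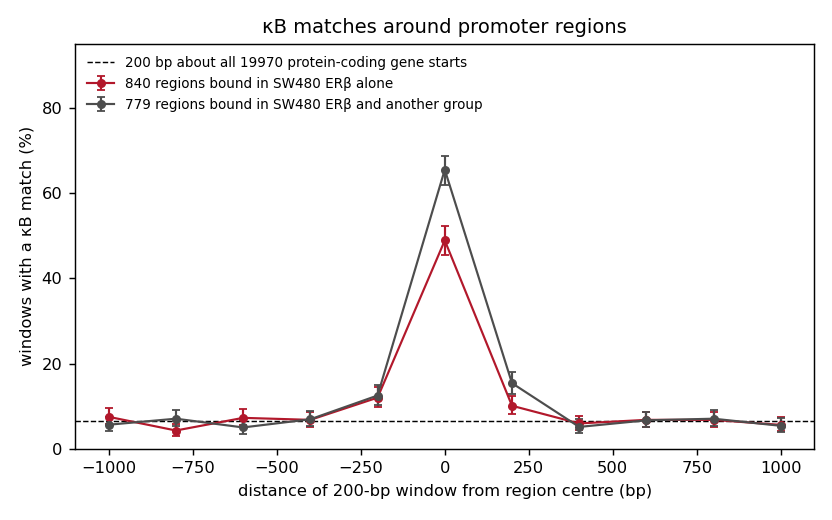
Share of 200-bp windows with a κB match (y axis, %) by distance of the window from the region centre in bp (x axis), with 95% Clopper-Pearson intervals, for the 840 members and the 779 shared promoter regions; the dashed line is the share at all gene starts. Both curves peak at the centre, the members at 48.9% and the shared promoters at 65.5%, and at 400 bp both are close to the dashed line.

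Within the members, the share in these windows of 200 bp was 43.3% (36.5% to 50.3%) in the 210 with the lowest SW480 ERβ signal and 54.8% (47.8% to 61.6%) in the 210 with the highest, with 51.4% and 46.2% in the sets of 210 between. It was 53.1% (47.2% to 59.0%) for members that passed in 3 SW480 ERβ tracks and 46.7% (42.5% to 51.0%) for those that passed in 2. Where at least 1 track of another group passed it was 53.7% (48.6% to 58.7%), and where none did 44.8% (40.1% to 49.5%). The intervals overlapped in each of these comparisons. Over whole regions, which differ in length, the shares were farther apart, with 60.8% (54.9% to 66.4%) for 3 tracks and 48.6% (44.3% to 52.8%) for 2. Members of 2 or more bins held a match in 67% of whole regions and those of 1 bin in 48.0%, and 48.3% of the members that passed in 3 tracks had 2 or more bins, beside 12.7% of those that passed in 2. For members with and without a match in the whole region, the median SW480 ERβ signal was 2.91 and 2.77, the mock signal 1.39 and 1.37, and the share that passed in 3 SW480 ERβ tracks 39.5% and 28.5%. The SW480 groups did not overlap at 60.9% and 61.5% of them.

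Other motifs were counted in the same windows on both strands, as letters in the sequence and not as occupied sites. The RUNX letters TGTGGTT or TGTGGTC were in 7.26% of members (5.60% to 9.23%) and in 3.08% of shared promoters (1.98% to 4.55%). They were in 17.8% of distal regions and in 4.62% of gene starts. Over whole regions, which differ in length, members and shared promoters were close, at 8.33% (6.55% to 10.4%) and 7.19% (5.48% to 9.23%). The AP-1 letters TGAGTCA or TGACTCA were in 4.64% of members, 4.62% of shared promoters, 14.8% of distal regions and 2.61% of gene starts. FOXA (TGTTTAC) was in 0.714%, 2.44%, 4.85% and 1.37% of these sets. No member and no shared promoter held the exact palindromic estrogen response element with a gap of 3 bases, an element that ERβ itself binds. The upper bounds were 0.438% and 0.472%, and 0.0351% of gene starts held it. Imperfect elements were not counted, and the study states that the cells received no estradiol. SP1/KLF letters (GGGCGG) were in 52.7% of members, 51.3% of shared promoters and 46.9% of gene starts, and ETS letters (CCGGAAG) in 8.69%, 7.57% and 10.2%. NFY letters (CCAAT) were in 15.6%, 17.5% and 25.9% of these sets, and TATA letters (TATAAA) in 1.55% (0.827% to 2.63%), 2.05% and 7.08%, so that the members stood near the shared promoters in both. The remaining sets, CRE (TGACGTCA), the NRF1 palindrome and the E-box (CACGTG), were in 1.07%, 0.714% and 7.38% of members, in 1.16%, 0.642% and 6.29% of shared promoters and in 1.87%, 1.2% and 5.87% of gene starts. The ETS letters can share bases with a κB match. The median GC content was 66.5% at the members, 66.0% at shared promoters, 53.5% at distal regions and 63.5% at gene starts.

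In position the members were like the shared promoters. The median centre lay at -24 bp from the nearest start (interquartile range -194 to 156 bp), 271 members (32.3%) lay within 100 bp of it beside 31.7% of shared promoters, and 504 lay within 250 bp. Regions of a single bin made up 75.1% of members, 77.6% of the distal SW480 ERβ-alone regions and 23.6% of shared promoters. Bins were joined over groups, so the rule itself can make a region bound in several groups longer, and nothing is read from the width. By the annotation at the centre, 355 members were in introns, 245 outside genes, 195 in exons of untranslated regions and 45 in coding exons. Another bound region lay within 50 kb of 324 members (38.6%) and of 42.2% of shared promoters. Members were found on all 23 chromosomes searched, from 1.86 per 100 protein-coding genes on the X chromosome to 6.01 on chromosome 14.

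Signal at the members was also compared between HT29 ERβ and HT29 mock. The rule had used these values as well, since it left out any region bound in either HT29 group, and a single track still passed at 182 and 342 members. At the bin with the highest SW480 ERβ signal, the fold over input was met in 2 of 3 tracks at 34 members in HT29 ERβ and at 137 in HT29 mock. The counts are therefore given as a description of the regions that were left. By limma on log2(signal + 1) over all 6238 regions with Benjamini-Hochberg adjustment, 0 of 840 members were called between HT29 ERβ and HT29 mock, beside 0.0% of all regions, which does not show that they were alike. The unadjusted p was below 0.05 at 10 members and 122 regions in all, and no other tool was run. The smallest adjusted p of a member was 0.678, at PPP1R3B, with 1.2, 0.70 and 0.847 in HT29 ERβ and 0.385, 0.227 and 0.144 in HT29 mock. The median log2 difference was -0.12 at the members and -0.15 at all regions. With the replicate number as a block, 13 regions were called, all lower in HT29 ERβ, and again no member, while the unadjusted p was below 0.05 at 75 members and at 1171 of all 6238 regions.

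Without ERβ, the lines differed at 138 members (16.4%) between SW480 mock and HT29 mock by the same limma fit, with 101 higher and 37 lower in SW480 mock. Of all regions 40.7% differed, 15.6% higher and 25.1% lower. Both mock groups took part in the choice, and with an input median of 0.79 at the members SW480 mock could stay below the input limit at a higher signal than HT29 mock with 0.436, so nothing is read from the split of the members. With a block for the replicate number 108 members were called, 88 higher and 20 lower, beside 2078 of all regions, 812 higher and 1266 lower. Pairing by number was checked only between ERβ and mock within a line, so it is not known to hold across lines. When libraries were rescaled to an equal level at the regions bound in all 4 groups, 281 members were called, 244 higher and 37 lower, beside 3433 of all regions, 1786 higher and 1647 lower, so that the balance over all regions turned. That step moved the median log2 difference of all regions from -0.14 to 0.07, and its part in the added calls was not tested. Some of the called members are described here by their values. At MAGI1, the gene of a junction scaffold, SW480 mock gave 1.49, 2.42 and 2.23 and HT29 mock 0.185, 0.0927 and 0.12 (log2 difference 1.42, SE 0.22), while SW480 ERβ gave 2.83, 3.25 and 3.85. At WT1, a developmental transcription factor gene, SW480 mock gave 2.30, 2.55 and 2.87 and HT29 mock 0.488, 0.31 and 0.373 (log2 difference 1.36, SE 0.27). BEND6, TBC1D16, ROBO1, LRMDA and ZNF605 were also among the 10 members with the smallest adjusted p and higher in SW480 mock, with log2 differences from 0.96 to 1.24.

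TRIB1 and TLE1 were the members of that group of 10 that were lower in SW480 mock. At TRIB1, encoding a pseudokinase that directs protein degradation, HT29 mock gave 14.2, 5.39 and 8.31, HT29 ERβ 10.6, 3.83 and 5.29, SW480 mock 1.38, 1.29 and 1.60 and SW480 ERβ 2.15, 6.89 and 5.07. The HT29 signal was above SW480 ERβ by mean, and HT29 was not counted as bound because 2 of 3 tracks in each HT29 group stood less than 4 times above the surrounding 10 kb (2.05 to 3.90 times). The difference between the mock groups was -2.0 on the log2 scale (SE 0.34). TLE1, a transcriptional corepressor gene, gave 2.56, 3.42 and 2.42 in SW480 ERβ, 0.261, 0.32 and 0.396 in the SW480 mock libraries, and 3.65, 1.48 and 2.33 in those of HT29 mock (log2 difference of the mock groups -1.35, SE 0.26). At 42 members (5.0%) another group's mean reached or passed that of SW480 ERβ, at 36 of them HT29 mock, among them SQLE, encoding squalene epoxidase of sterol synthesis, with 5.88 in HT29 mock and 2.78 in SW480 ERβ, and EDEM3.

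As a background of the same class, 18217 protein-coding promoters without any bound region were read. Their median signal per library, as group mean, was 0.517 ± 0.0125 in SW480 ERβ and 0.492 ± 0.0105 in SW480 mock (SD, n = 3, difference 0.0245, exact two-sided permutation p = 0.1, the smallest that 3 against 3 allows). In HT29 it was 0.399 ± 0.0203 in ERβ and 0.409 ± 0.0165 in mock (exact permutation p = 0.5), with ERβ below mock in each of the 3 pairs of libraries of the same number. Each group had a single input, whose median on these promoters was 0.408 for SW480 ERβ, 0.527 for SW480 mock, 0.436 for HT29 ERβ and 0.373 for HT29 mock. Relative to the own input, SW480 ERβ was at 1.27 and SW480 mock at 0.935, and HT29 ERβ at 0.916 and HT29 mock at 1.1. These ratios are given without a test, since the error of a single input cannot be told from the ChIP replicates. At the 572 regions bound in all 4 groups the median signal was 4.33, 8.20 and 7.16 in SW480 ERβ and 3.37, 3.82 and 3.81 in SW480 mock, so the libraries that are high at the members were high there too. As a label check, signal in ESR2 coding exons, which a cDNA construct carries without introns, was 2.33 to 2.91 times that of its introns in SW480 ERβ and 1.26 to 1.58 times in SW480 mock, and 4.0 to 6.82 against 1.1 to 1.34 times in HT29. The inputs differed less in this ratio, with 1.74 for SW480 ERβ and 1.54 for SW480 mock, and 2.11 and 1.17 in HT29.

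The members varied with the rule. Between 614 and 965 regions were found under 11 of 16 other settings, and 10 members were kept under all 16, among them those nearest OXTR, TPBG, REPIN1, ENSG00000284956, SAA1, SYNE3, LRRC49, NTN1 and ZNF385C. These 10 had mean SW480 ERβ signals from 2.81 at LRRC49 to 8.23 at REPIN1. Moving the bin grid by 100 bp gave 839 regions, of which the overlap covered 617 members (73.5%). The SW480 ERβ libraries were also left out in turn, with both other tracks required. Without replicate 1, 784 regions were found, which overlapped 93.1% of the members. Without replicate 2 there were 309 (36.5%) and without replicate 3, 333 (39.3%), so the set rested mostly on replicates 2 and 3. With the mean of both inputs of a line together with rescaled libraries 147 remained, a combination chosen after seeing the data.

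**Figure D5:**
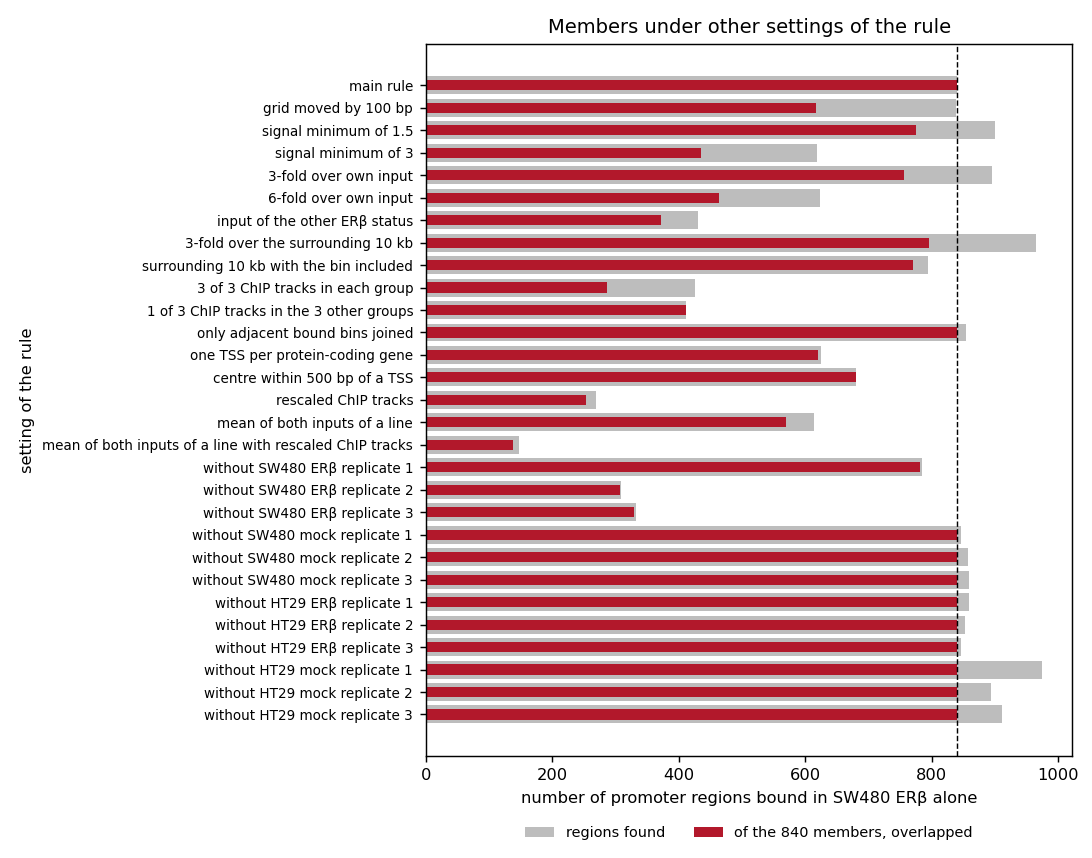
Number of promoter regions bound in SW480 ERβ alone (x axis) under each setting of the rule (y axis); grey bars are the regions found, red bars the number of the 840 members they overlap, and the dashed line marks 840. The shortest bars are the combined mean input and rescaling at 147, rescaling at 269 and the sets without SW480 ERβ replicate 2 (309) or replicate 3 (333).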

How the data were processed

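The data are p65 ChIP-Seq tracks of 12 ChIP and 4 input libraries. Reads were aligned by the authors to GRCh38 (hg38) with STAR, and the deposited tracks, made with HOMER (the versions are not given in the sources used here), hold signal as tag density scaled by the authors to a common total. A mark in the track names was taken to mean that tags at the same position were counted once. Values under 0.05 are absent. No counts can be recovered from the tracks, so the edgeR test of the study's methods was not run. Library depth was not used here, though the study reports mapped reads per sample.

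Signal was averaged in 200-bp bins and regions were found by the rule given in the report. The surrounding 10 kb was taken without the bin itself. Fits used limma with a mean-variance trend on log2(signal + 1), Benjamini-Hochberg adjustment over all regions and a threshold of 0.05, after tests on simulated data. Library medians were compared by exact two-sided permutation tests, and shares carry 95% Clopper-Pearson intervals. Genes came from GENCODE release 44. Software was Python 3.11.15, numpy 2.4.6, pandas 2.3.3, numba 0.67.0, scipy 1.17.1, pysam 0.24.0, samtools 1.23.1, matplotlib 3.10.9, R 4.3.3 and limma 3.58.1.

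Replicate numbers were checked for pairing. Same-numbered libraries of a line, ERβ and mock, correlated over regions, after their group means were removed, at 0.611, 0.257 and 0.287 in HT29 and 0.314, 0.137 and 0.24 in SW480, all above 0.1. Libraries of different numbers reached 0.3 and 0.198 between replicates 2 and 3 in HT29 and at most 0.0237 in SW480. The number served as a block in an alternative fit. Only these correlations speak for the pairing, since no label gives what a number stands for. The study calls the libraries biological replicates.

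Members were named by the nearest protein-coding start: the 12 with the highest SW480 ERβ signal, the 8 with the largest difference to mock, the 5 on each side of the limits, up to 10 called in each fit, up to 4 per gene list, those with 3 or more κB matches and those kept under all settings, with a selection printed. Within a gene list, the up to 4 members were those with the highest SW480 ERβ signal. The members and lists were chosen with earlier results of these data known. Some members, sequences and a gene list are not reported here.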

Additional observations from a re-analysis of the deposited data

How the results depend on the processing

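The number of members was 840. It became 431 with the input of the other ERβ status, 426 with 3 of 3 tracks required in each group, 412 when 1 passing track in another group excluded a region, 269 with rescaled libraries and 147 with rescaled libraries and the mean of both inputs (chosen after seeing the data). Leaving out each ChIP library in turn gave 309 to 974. Which of input, scaling and library sets the number was not tested beyond these values. The κB share of 52.7% over whole regions became 48.9% in 200 bp about the centre and 49.2% with a stricter consensus. With up to 1 mismatch it was 93.8% over whole regions, beside 53.7% in 200 bp about gene starts, so the lengths differ. It was 57.7% with 3 of 3 tracks, 57.8% with rescaled libraries and mean inputs, and 47.7% at members that no other track passed. The last was a choice made after seeing the data, as were the mean of inputs and the reading of classes of members over equal windows.

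The 138 members called between the mock groups became 281 with rescaling, 89 of 680 at a mean signal of at least 1, of which 55 were higher and 34 lower (2186 of 5029 regions in all, 653 higher and 1533 lower), 108 with the replicate block, and 97 to 174 with each library left out. The block changed no other call at a member, and 0 members were called between the HT29 groups under every setting, including those that left out a library. All 127 alternative values of the 10 named members of the mock comparison kept their direction and their call. These 10 had been picked for the smallest adjusted p in the same libraries, so nothing is read from this. At promoters without a bound region the HT29 difference of -0.00943 ranged from -0.0195 to 0.000767 with a library left out, and was above 0 without HT29 ERβ replicate 2. The SW480 difference of 0.0245 ranged from 0.0177 to 0.03.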
